A study of Homo sapiens with 6 samples.

Results

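The genes described here are 10 genes of the NF-kB pathway: the 5 subunits NFKB1, NFKB2, RELA, RELB and REL, the inhibitors NFKBIA and NFKBIE, and the feedback genes TNFAIP3, BIRC3 and BCL3. They were chosen by name from the 58735 genes of the count table, and all 10 passed the filter on low counts that left 14338 genes to test. NF-kB is a family of transcription factors that bind DNA as dimers of these subunits at short kappaB elements. In resting cells the dimers are held in the cytoplasm by inhibitor of kappaB (IkappaB) proteins until the IkappaB kinase (IKK) complex, which acts below receptors for TNF, IL-1 and microbial products, marks the inhibitor for destruction. Active dimers then raise the transcription of several of their own inhibitors and subunits, so the transcripts of the feedback genes are often read as a trace of NF-kB activity, and many basal-like breast cancer lines are known for NF-kB activity without an added stimulus.

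The libraries were 6 RNA-Seq libraries of BT549, an established human basal-like breast cancer cell line, 3 from cells given the solvent DMSO (DMSO replicates A, B and C) and 3 from cells given AS1842856 (AS1842856 replicates A, B and C), a compound that binds the transcription factor FOXO1 and blocks its contact with DNA. Both groups were harvested 48 h after the start of treatment, and no cytokine or other NF-kB stimulus is named. The labels give the dose of AS1842856 as 200 nM. The methods of the study name a higher dose for the RNA-Seq cells, and which of the doses applies was not resolved. The comparison asked how the transcripts of each gene differed between cells given AS1842856 and cells given DMSO.

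Assigned reads totalled between 15289500 and 22981832 per library. Of all genes tested, 56.0% were called at a Benjamini-Hochberg adjusted p under 0.05 by the quasi-likelihood test of edgeR, with 28.4% lower and 27.6% higher in AS1842856, so a call by itself was common, and the median log2 fold change over all genes was 0.003. All 8 markers fixed for a mesenchymal basal line were detected, with a summed level of 5041 to 5179 CPM (counts scaled to the depth of the library) in DMSO and 4283 to 4354 CPM in AS1842856. All 8 were called, 2 higher and 6 lower. FN1 rose from a mean of 449.5 to 981.1 CPM and ZEB1 from 69.7 to 98.5 CPM. AXL had the largest fall, from 422.6 to 134.5 CPM. The 10 luminal epithelial markers summed to 198.8 to 203.8 CPM and to 137.8 to 148.6 CPM, and its members moved both ways: KRT8 fell from a mean of 40.9 to 4.15 CPM and KRT18 from 33.9 to 3.45 CPM, GATA3 rose from 50.9 to 61.7 CPM and KRT19 from 3.0 to 9.4 CPM, and CDH1 and ESR1 had no more than 1 count in any library. Of 10 leukocyte markers, 7 had at most 3 counts in every library and 4 of these had 0, and the list summed to 1.29 to 2.41 CPM in DMSO and 3.66 to 4.71 CPM in AS1842856. The 5 endothelial markers summed to 0.538 to 1.05 CPM and to 1.31 to 1.86 CPM, mostly from TEK, which was not called (means of 0.771 and 1.27 CPM). The part of these marker shifts in the results below was not tested. Fewer cells of a kind and less RNA per cell cannot be told apart in RNA from whole cultures.

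The kappaB element is the sequence that NF-kB dimers bind, so any places in the promoters of these genes that match it are shown first. Promoter sequences were taken from RefSeq (build GRCh38.p14), as the 250 bases before each annotated gene start, and 8 of the 10 genes had an entry; RELB and NFKBIE had none. The kappaB consensus, searched on both strands, had a match on at least 1 strand in 6 of the 8 genes, NFKB1, NFKB2, REL, NFKBIA, TNFAIP3 and BIRC3, against 11.8% of the 27305 genes in the promoter table and 9.96% of its 35116 windows. Several of these genes are textbook examples of kappaB-driven genes, so their share is a description of genes chosen in part for it. Some of the stretches lie before the RefSeq start but inside exons of the GENCODE 29 annotation: all 30 bases for TNFAIP3, all 29 and 30 bases for start 2 of NFKB2, 26 of 29 bases for REL, 11 of 30 bases for the downstream place of start 3 of NFKB2, and 6 of 40 bases for NFKB1. The stretches follow on the strand of the gene, with the letters that match the consensus on either strand in capitals.

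NFKB1: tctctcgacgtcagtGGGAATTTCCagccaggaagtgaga
NFKB2, start 2, upstream place: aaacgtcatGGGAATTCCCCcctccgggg
NFKB2, start 2, downstream place: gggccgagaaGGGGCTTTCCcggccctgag
NFKB2, start 3, upstream place: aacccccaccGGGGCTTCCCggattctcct
NFKB2, start 3, downstream place: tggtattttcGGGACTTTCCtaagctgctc
REL: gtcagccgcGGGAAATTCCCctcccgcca
NFKBIA: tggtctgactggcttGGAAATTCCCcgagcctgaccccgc
TNFAIP3: ctttGGAAAGTCCCgtGGAAATCCCCgggc
BIRC3: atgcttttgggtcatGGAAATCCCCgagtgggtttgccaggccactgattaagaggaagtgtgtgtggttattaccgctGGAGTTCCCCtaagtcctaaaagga

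The NFKB1 stretch is chr4:102501295-102501334 on the plus strand and holds 1 match, at positions -49 to -40 from the gene start. The NFKB2 stretches are chr10:102394462-102394490, chr10:102394490-102394519, chr10:102395519-102395548 and chr10:102395674-102395703, all on the plus strand, and its first start had no match. REL is shown at chr2:60881518-60881546 on the plus strand and NFKBIA at chr14:35404806-35404845 on the minus strand. TNFAIP3, at chr6:137867188-137867217 on the plus strand, held a pair of adjacent matches, and BIRC3, at chr11:102317270-102317373 on the plus strand, held a pair further out, at positions -199 to -190 and -135 to -126. RELA and BCL3 had no match to the consensus. A looser form, GGG and CC with any 5 bases between them, was met in all 8 genes but also in 57.8% of all genes in the table. The forkhead core GTAAACA, the element to which FOXO1 binds, was searched on both strands and was met in 0 of the 8 genes and in 3.66% of all genes. These matches are letters in a window and are no measure of binding.

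**Figure D1:**
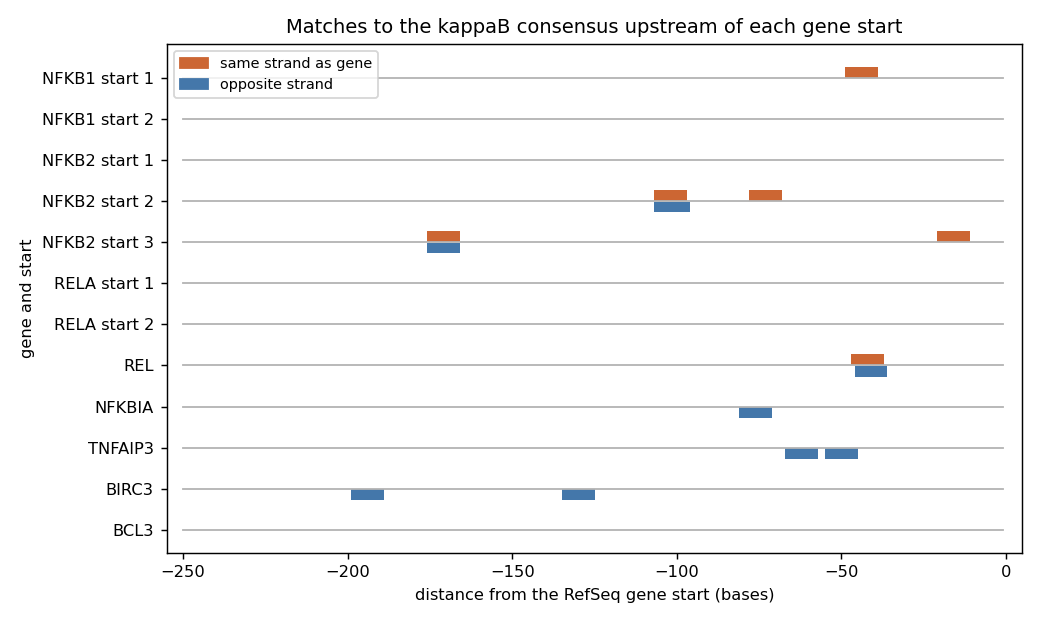
Matches to the kappaB consensus in the 250 bases before each RefSeq gene start, with the distance from the start in bases on the horizontal axis and 1 line per annotated start of the 8 genes in the promoter table. Orange blocks are matches on the strand of the gene and blue blocks matches on the opposite strand; 7 of the 12 windows hold at least 1 match, and those of RELA and BCL3 hold none.

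Of the 10 genes, 6 were lower in AS1842856, 1 was higher and 3 were not called, so 7 were called against 56.0% of all genes tested. The genes that fell were BIRC3, TNFAIP3, NFKBIA, NFKB2, BCL3 and NFKB1, in order of size, and RELA alone was called higher. The 3 libraries of one group did not overlap those of the other in 7 of the 10 genes, against 59.9% of all genes. The median log2 fold change over the 10 genes was -0.32. DESeq2, which called 35.8% of the genes it tested, called the same 7. Levels within a gene are given as CPM scaled by the trimmed mean of M values (TMM), log2 fold changes are AS1842856 against DMSO with the standard error (SE) of the fit, and adjusted p values are those of edgeR over all genes tested.

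**Figure D2:**
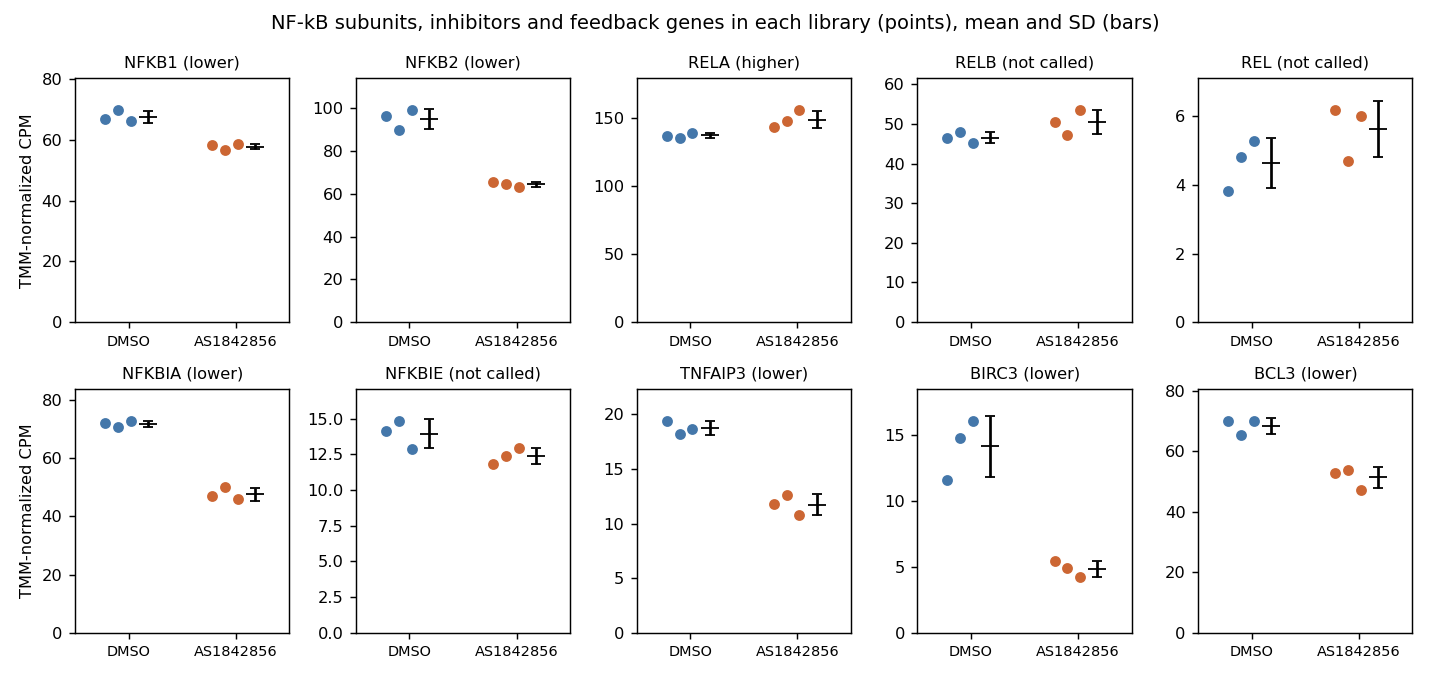
TMM-normalized CPM of each of the 10 genes in each library (points), with the mean and SD of the 3 libraries of each group (bars); blue is DMSO, orange AS1842856, and every vertical axis starts at 0. NFKB1, NFKB2, NFKBIA, TNFAIP3, BIRC3 and BCL3 are lower in all 3 AS1842856 libraries, RELA is higher in all 3, and the points of RELB, REL and NFKBIE overlap.

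Of the subunits, NFKB1 and NFKB2, which are made as precursors, fell, RELA rose, and RELB and REL were not called. NFKB1 (ENSG00000109320, chr4:102501329-102617302) encodes p105, the precursor of p50, a DNA-binding subunit without an activation domain of its own. It was at 66.8, 69.8 and 66.3 CPM in DMSO replicates A, B and C and at 58.2, 56.8 and 58.6 CPM in AS1842856 replicates A, B and C. The groups did not overlap, with a gap wider than the range within either group. NFKB1 fell by 0.23 on the log2 scale (SE 0.053, adjusted p = 9.2e-05), to 85.6% of the DMSO level, a change inside the interquartile range of all genes tested, -0.28 to 0.25.

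NFKB2 (ENSG00000077150, chr10:102394110-102402529) encodes p100, which is both the precursor of p52 and an inhibitor that holds RELB dimers in the cytoplasm. Its levels were 96.5, 90.1 and 99.2 CPM in DMSO and 65.8, 64.5 and 63.0 CPM in AS1842856, in the order of replicates A, B and C. All AS1842856 libraries lay well below the lowest DMSO library. The log2 fold change was -0.57 (SE 0.049, adjusted p = 6.58e-24), or 67.5% of DMSO, and 13.7% of all genes tested fell further.

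RELA (ENSG00000173039, chr11:65653596-65663094, minus strand) encodes p65, the subunit with the activation domain that carries most canonical NF-kB signalling. It measured 137.1, 135.6 and 139.4 CPM in DMSO and 143.3, 147.7 and 155.8 CPM in AS1842856. Every AS1842856 library was above every DMSO library, and the AS1842856 libraries spread more widely. RELA rose by 0.12 on the log2 scale (SE 0.041, adjusted p = 0.00938), to 108.4% of DMSO. This call was lost without AS1842856 replicate C (log2 fold change 0.08, adjusted p = 0.124) and without a filter on low counts (adjusted p = 0.0561). AP001362.2, on the opposite strand, shares 9 exon bases with RELA and had 0.247% of its counts.

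RELB (ENSG00000104856, chr19:45001430-45038198) encodes the partner of p52 in the non-canonical branch of the pathway. It stood at 46.4, 47.9 and 45.2 CPM in DMSO and at 50.6, 47.3 and 53.4 CPM in AS1842856. AS1842856 replicate B lay within the DMSO range and the other two above it. RELB had a log2 fold change of 0.11 (SE 0.059, adjusted p = 0.0873), and it was called without AS1842856 replicate B (0.16, adjusted p = 0.0329).

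REL (ENSG00000162924, chr2:60881521-60931610), the c-Rel subunit studied chiefly in lymphocytes, had 74 to 107 counts in a library and was the lowest of the 10 genes per length. Its levels were 3.83, 4.82 and 5.27 CPM in DMSO and 6.18, 4.69 and 6.0 CPM in AS1842856. The groups overlapped, since AS1842856 replicate B lay among the DMSO libraries. The log2 fold change of 0.27 (SE 0.17, adjusted p = 0.151) was not called, and it was 0.14 without DMSO replicate A and 0.40 without AS1842856 replicate B (adjusted p = 0.562 and 0.0555). A noncoding gene on the same strand, AC010733.2, covers 43.3% of the exon bases of REL and had 0 counts in every library. The counting tool is not stated, so it is not known whether reads on the shared bases were counted for REL. If they were not, its level per length, and its rank and share below, are too low.

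Both IkappaB genes had lower means in AS1842856, and the difference passed the test for NFKBIA alone. NFKBIA (ENSG00000100906, chr14:35401511-35404749, minus strand) encodes IkappaB alpha, the inhibitor that is destroyed on IKK activation and remade within the same response. It was at 72.1, 70.6 and 72.8 CPM in DMSO and at 46.9, 50.2 and 45.9 CPM in AS1842856. The DMSO libraries lay close together, and all AS1842856 libraries were far below them. NFKBIA fell by 0.59 on the log2 scale (SE 0.054, adjusted p = 1.19e-21), to 66.4% of DMSO, and leaving out any 1 library kept the change between -0.63 and -0.56.

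NFKBIE (ENSG00000146232, chr6:44258166-44265788, minus strand) encodes IkappaB epsilon, an inhibitor of p65 and c-Rel dimers. It measured 14.2, 14.9 and 12.9 CPM in DMSO and 11.8, 12.4 and 13.0 CPM in AS1842856. The highest AS1842856 library passed the lowest DMSO library, so the groups overlapped. With a log2 fold change of -0.17 (SE 0.11, adjusted p = 0.171) NFKBIE was not called, nor was it with any 1 library left out (adjusted p from 0.0925 to 0.354).

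The 3 feedback genes all fell, beside 28.4% of all genes tested that were called lower. BIRC3 (ENSG00000023445, chr11:102317450-102339403) encodes cIAP2, a ubiquitin ligase at TNF receptors that protects cells from death and is a widely used readout of NF-kB. It had 11.6, 14.8 and 16.0 CPM in DMSO and 5.4, 4.91 and 4.21 CPM in AS1842856. The groups were well apart, although the DMSO libraries themselves spread with a coefficient of variation of 16.3%. BIRC3 had a log2 fold change of -1.54 (SE 0.13, adjusted p = 1.64e-24), or 34.4% of DMSO, the largest change among the 10 genes, and 2.73% of all genes tested fell further. It kept a log2 fold change between -1.68 and -1.44 with each library left out.

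TNFAIP3 (ENSG00000118503, chr6:137867188-137883312) encodes A20, a ubiquitin-editing enzyme that ends signalling from TNF and IL-1 receptors. Its levels were 19.4, 18.2 and 18.6 CPM in DMSO and 11.8, 12.7 and 10.8 CPM in AS1842856. The groups were set apart by several times the spread within them. TNFAIP3 fell by 0.67 on the log2 scale (SE 0.10, adjusted p = 7.81e-10), to 62.9% of DMSO. An antisense gene, AL357060.1, shares 95 exon bases with it and held 2.2% as many counts, and the sources used here do not state whether reads were counted by strand.

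BCL3 (ENSG00000069399, chr19:44747705-44760044) encodes a nuclear IkappaB protein that binds p50 and p52 homodimers on DNA and can give them an activation domain. It stood at 70.0, 65.3 and 70.0 CPM in DMSO and at 52.7, 53.9 and 47.3 CPM in AS1842856. No AS1842856 library reached the DMSO range. The log2 fold change was -0.41 (SE 0.055, adjusted p = 3.49e-12), or 75.01% of DMSO. A microRNA gene on the same strand, MIR8085, shares 65 exon bases with BCL3 and had 0 counts.

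**Figure D3:**
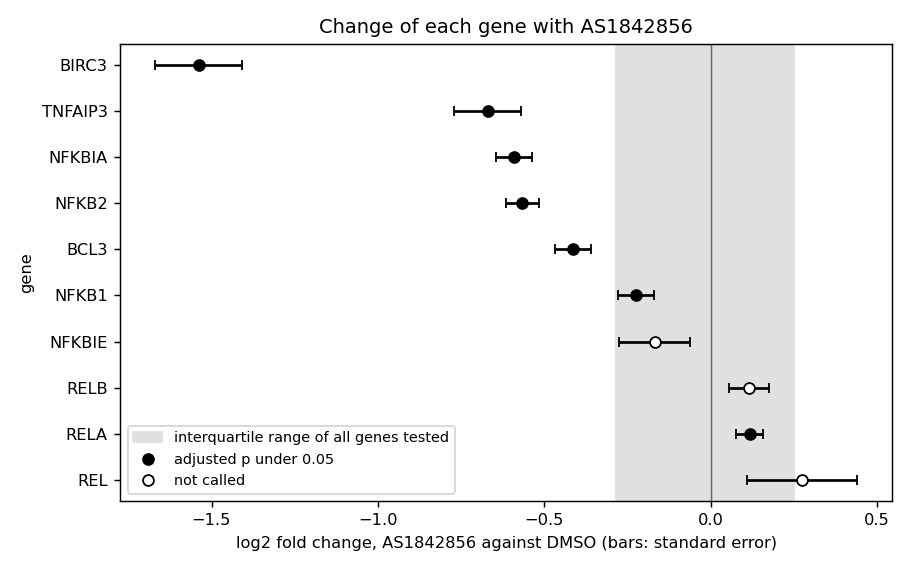
Log2 fold change of each of the 10 genes, AS1842856 against DMSO, with its SE (bars), in order of size; filled points have an adjusted p under 0.05. The grey band is the interquartile range of all 14338 genes tested (-0.28 to 0.25): BIRC3, TNFAIP3, NFKBIA, NFKB2 and BCL3 lie below it, and NFKB1 and RELA, although called, lie inside it.

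The 6 genes with a consensus match were 5 that fell (NFKB1, NFKB2, NFKBIA, TNFAIP3, BIRC3) and REL, which was not called. Of the pair without a match, BCL3 fell and RELA rose. Among all genes tested with a promoter entry, 35.7% of the 1594 genes with a match were lower and 26.7% higher (median log2 fold change -0.04), and of the 8560 genes without one 29.6% were lower and 29.9% higher, with a median of 0.002. These shares are descriptions without a test.

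Levels can be compared between genes only per length, for which the deposited FPKM values were used, fragments scaled by the length of the gene and the depth of the library. In DMSO, the order of the mean FPKM was NFKBIA (30.1 ± 0.514, SD, n = 3), RELA (24.98 ± 0.375), NFKB2 (21.1 ± 1.07), BCL3 (21.0 ± 0.858), RELB (15.2 ± 0.428), NFKB1 (10.7 ± 0.288), NFKBIE (5.37 ± 0.383), TNFAIP3 (3.69 ± 0.128), BIRC3 (1.87 ± 0.304) and REL (0.35 ± 0.0557). Of the neighbours in this order, NFKB2 and BCL3 overlapped between libraries and no others did. In AS1842856, RELA led at 27.1 ± 1.13 FPKM, followed by NFKBIA at 19.9 ± 0.943, RELB at 16.5 ± 1.0, BCL3 at 15.7 ± 1.09, NFKB2 at 14.3 ± 0.32 and NFKB1 at 9.19 ± 0.148. The last 4 places were unchanged, with NFKBIE at 4.77 ± 0.213, TNFAIP3 at 2.31 ± 0.182, BIRC3 at 0.639 ± 0.0801 and REL at 0.424 ± 0.0616. RELB overlapped BCL3 and BCL3 overlapped NFKB2, while NFKBIA and RELA changed places without overlap in either group. The exchange of the first places depended on the gene length: per kilobase of the principal transcript, RELA was above NFKBIA in DMSO as well, at 50.9 ± 0.653 against 46.1 ± 0.618 on the scale of CPM per kilobase.

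The 5 subunits summed to 72.4 ± 0.735 FPKM in DMSO and 67.5 ± 1.79 FPKM in AS1842856, and every AS1842856 library had a lower sum than every DMSO library. RELA made up 34.4%, 34.4% and 34.7% of the sum in the DMSO libraries and 39.0%, 40.7% and 40.8% in the AS1842856 libraries. The share of NFKB2 was 29.5%, 27.8% and 30.1% in DMSO and 21.8%, 21.7% and 20.1% in AS1842856. RELB went from 21.0 ± 0.805% to 24.5 ± 0.894% and NFKB1 from 14.8 ± 0.547% to 13.6 ± 0.228%, and neither group overlapped the other. REL was under 1% of the sum in every library. The shares of a sum depend on one another, so a larger share of RELA and RELB is in part the smaller share of NFKB2.

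**Figure D4:**
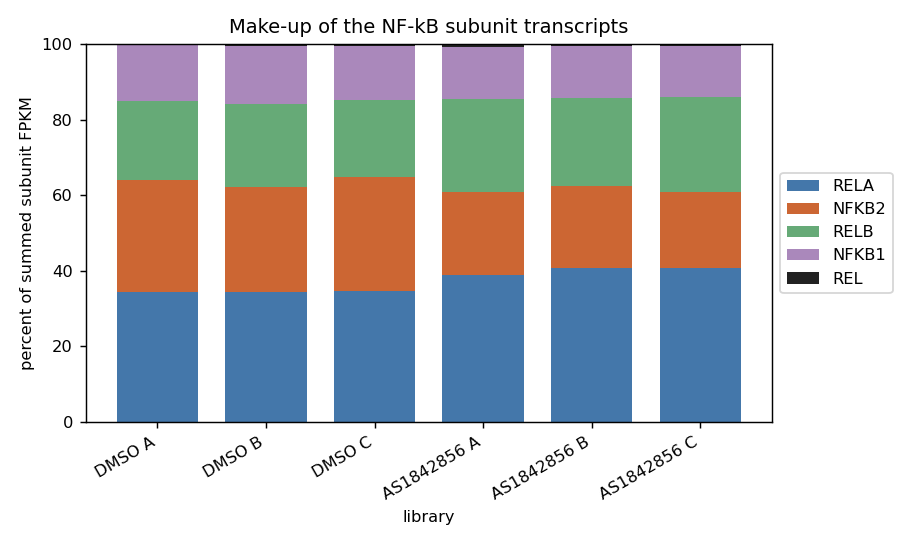
Share of each of the 5 NF-kB subunits in their summed FPKM, in percent, for each of the 6 libraries. RELA takes 34.4% to 34.7% in DMSO and 39.0% to 40.8% in AS1842856, NFKB2 27.8% to 30.1% and 20.1% to 21.8%, and REL is a thin strip at the top.

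Ratios between partners were computed from the FPKM of each library for 4 pairs, each with an exact two-sided permutation test, which with 3 libraries against 3 cannot go below 0.1. The ratio of NFKBIA to RELA was 1.21, 1.2 and 1.2 in DMSO and 0.753, 0.782 and 0.678 in AS1842856, a log2 difference of -0.71 (exact p = 0.1, adjusted over the 4 ratios 0.133). NFKB2 to RELB, the precursor inhibitor and the subunit it holds, was 1.41, 1.27 and 1.49 against 0.88, 0.923 and 0.798, a log2 difference of -0.68 (exact p = 0.1, adjusted 0.133). NFKB1 to RELA, the partners in the classical p50 and p65 dimer, was 0.425, 0.45 and 0.415 against 0.355, 0.336 and 0.328, a log2 difference of -0.34 (exact p = 0.1, adjusted 0.133). The groups did not overlap in these 3 ratios, and the p was the smallest the design allows. For all 3 ratios this outcome was fixed by the levels of the genes. RELA was higher, and NFKBIA and NFKB1 lower, in every AS1842856 library than in any DMSO library. In DMSO, the lowest FPKM of NFKB2 was above the highest of RELB. In AS1842856, the highest FPKM of NFKB2 was below the lowest of RELB. NFKBIE to REL overlapped, at 18.9, 15.7 and 12.4 against 9.76, 13.5 and 11 (log2 difference -0.45, exact p = 0.2, adjusted 0.2).

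The rest of the pathway was followed through lists of genes by role. The 16 other NF-kB inhibitors were all tested, and 3 were higher, 6 lower and 7 not called, close to the 56.0% called of all genes, with a median log2 fold change of -0.05. CYLD, a deubiquitinase that removes the chains on which IKK is activated, was at 23.2, 20.9 and 23.2 CPM in DMSO and 11.6, 10.7 and 10.5 CPM in AS1842856 (log2 fold change -1.04, SE 0.098, adjusted p = 4.03e-21). NFKBIZ, an inducible nuclear IkappaB protein, fell by 0.83 on the log2 scale (adjusted p = 9.73e-26), from a mean of 44.8 to 25.2 CPM, and TNIP3, which binds A20, fell by 0.46 (adjusted p = 0.00381). NFKBIB, the third classical IkappaB, rose instead, from 34.5, 35.6 and 38.3 CPM to 53.0, 54.6 and 53.6 CPM (log2 fold change 0.57, SE 0.061, adjusted p = 2.93e-17). SIRT2 shares 40 of its exon bases from the other strand and had 143.0% of its counts. ZC3H12A, an RNase of inflammatory transcripts, rose by 0.53 (adjusted p = 4.29e-05) and TRAFD1 by 0.13 (adjusted p = 0.0317). The TRAFD1 call was lost by DESeq2 (adjusted p = 0.121), without a filter (0.107), and without any of DMSO replicates A, B and C or AS1842856 replicate B (0.0629 to 0.261). NFKBIA and NFKBIB, inhibitors of the same dimers, were called in opposite directions.

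Of 14 receptors that signal to NF-kB, 8 passed the filter, of which 4 were higher and 4 lower (median -0.18 on the log2 scale), beside 27.6% higher and 28.4% lower of all genes tested. These 8 are the receptors expressed enough to test, and no reading of the list is drawn from their share. TNFRSF1A, the broadly expressed TNF receptor, fell from a mean of 249.9 to 182.2 CPM (log2 fold change -0.46, adjusted p = 1.38e-25), and LTBR, the lymphotoxin receptor of the non-canonical branch, from 87.2 to 62.9 CPM (-0.47, adjusted p = 3.67e-17). TNFRSF11A (RANK) was low and fell from 5.48 to 1.35 CPM (-1.96, adjusted p = 1.29e-15). The chains of the IL-1 receptor moved up, IL1RAP from 85.1 to 112.3 CPM (0.40, adjusted p = 1.33e-15) and IL1R1 from 79.7 to 94.9 CPM (0.25, adjusted p = 9.69e-07). TLR6, a Toll-like receptor counted among the 4 higher, had 10, 8 and 12 counts in DMSO and 53, 77 and 63 counts in AS1842856 (means of 0.541 and 3.36 CPM), so it passed the filter through the group in which it was high and had to differ. TLR3, counted among the 4 lower, had 15, 10 and 16 counts in DMSO and 5, 5 and 6 counts in AS1842856. It passed the filter through DMSO in the same way, and DESeq2 did not call it (adjusted p = 0.106). TNFRSF12A, counted among the 4 higher, overlapped between groups and was not called by DESeq2 (adjusted p = 0.137). Fitted on log2 FPKM with a mean of at least 0.5 FPKM, 4 receptors rather than 8 were called.

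All 17 adaptors and ubiquitin ligases were tested, and 7 were higher, 7 lower and 3 not called (median -0.08), so 14 of 17 were called against 56.0% of all genes. TRAF5, an adaptor of TNF receptors, was at 18.3, 18.8 and 15.7 CPM in DMSO and at 4.38, 5.17 and 3.31 CPM in AS1842856 (log2 fold change -2.02, SE 0.13, adjusted p = 2.95e-38). IRAK2, a signalling partner of IL-1 receptors, fell from 27.8 to 16.2 CPM (-0.78, adjusted p = 2.77e-16) and TRAF2 from 58.4 to 45.0 CPM (-0.37, adjusted p = 1.66e-09). PELI1, an IRAK-directed ubiquitin ligase, rose from 6.01 to 10.96 CPM (0.87, adjusted p = 2.15e-09) and MYD88, the adaptor of IL-1 and Toll-like receptors, from 53.8 to 76.3 CPM (0.50, adjusted p = 1.86e-17). RNF31, the catalytic subunit of the linear ubiquitin ligase, rose by 0.34 (adjusted p = 5.93e-06), and PSME2, which shares 216 of its exon bases on the other strand, held 298.0% as many counts, while AL136295.5 covers 34.8% of its exon length on the same strand with 4.49% as many.

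Among 12 IKK subunits and upstream kinases, 5 were higher, 4 lower and 3 not called (median 0.12), so 9 of 12 were called against 56.0% of all genes. The largest fall was in MAP3K14, which encodes NIK, the kinase that starts the processing of p100 to p52. It was at 93.6, 99.0 and 90.3 CPM in DMSO and 26.7, 27.99 and 26.4 CPM in AS1842856, or 28.8% of DMSO (log2 fold change -1.80, SE 0.057, adjusted p = 4.32e-86). The libraries within each group lay close together, and the groups were far apart; the antisense gene MAP3K14-AS1 held 1.04% as many counts. MAP3K8 (TPL2), a kinase held by p105, moved the other way, from 2.69, 2.41 and 2.58 CPM to 6.72, 7.71 and 9.48 CPM (1.63, SE 0.17, adjusted p = 2.03e-17). MAP3K3 fell by 0.57 (adjusted p = 2.76e-13), with an overlapping gene on the opposite strand, LIMD2, at 33.4% of its counts, and IKBKB, the catalytic IKK subunit of the canonical branch, fell by 0.25 (adjusted p = 1.11e-07). TBK1 rose by 0.26 (adjusted p = 2.39e-05) and TAB3 by 0.23 (adjusted p = 0.00256).

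Of 10 coactivators and corepressors of p65, 4 were higher, 1 lower and 5 not called (median 0.04), so 5 of 10 were called against 56.0% of all genes. PDLIM2, a nuclear ubiquitin ligase for p65, fell from 21.5 to 8.69 CPM (log2 fold change -1.31, SE 0.10, adjusted p = 2.03e-27). HDAC2 rose by 0.22 (adjusted p = 4.08e-08), HDAC1 by 0.17 (adjusted p = 1.28e-05) and CREBBP by 0.14 (adjusted p = 0.00745), all within the interquartile range of all genes tested, and the CREBBP call was lost without DMSO replicate C (adjusted p = 0.0764).

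Genes listed as NF-kB targets were mostly lower, and their control by NF-kB in these cells was not measured. Targets can be shared with other pathways: the study discusses CCND1, which is in the list, as a WNT target. The list also holds SOD2, which the study names among genes induced by FOXO1. SOD2 was lower, at means of 327.1 CPM in DMSO and 143.3 CPM in AS1842856. The part of shared targets in the counts of the list was not tested. Of 36 listed, 24 passed the filter, and 18 of these were lower, 5 higher and 1 not called, with a median log2 fold change of -0.73 beside 0.003 over all genes, of which 28.4% were lower and 27.6% higher. The share called, 95.8% against 56.0% of all genes, is that of genes that had passed a filter on level, and 12 listed genes, inflammatory cytokines among them, were too low to test. CXCL1, a neutrophil chemokine, was at 121.1, 121.0 and 126.9 CPM in DMSO and 18.1, 16.6 and 19.0 CPM in AS1842856 (log2 fold change -2.79, SE 0.059, adjusted p = 1.46e-123). CSF1, the macrophage growth factor, fell from a mean of 188.7 to 40.9 CPM (-2.20, adjusted p = 1.96e-122) and PLAU, the urokinase protease, from 125.4 to 40.7 CPM (-1.62, adjusted p = 2.75e-88), with C10orf55 on the other strand at 1.44% of its counts. IL6 fell from 8.26 to 2.98 CPM (-1.49, adjusted p = 4.25e-16) and CCL5 from 5.83 to 2.03 CPM (-1.49, adjusted p = 4.52e-12), and STEAP1B, which shares 46 exon bases with IL6 on the opposite strand, held 74.6% as many counts as IL6. Both cytokines were low in every library.

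Against the direction of most of the list, 5 targets rose. PTGS2, which encodes the prostaglandin synthase COX-2, went from 6.38, 8.2 and 7.27 CPM to 44.6, 45.6 and 39.9 CPM (log2 fold change 2.59, SE 0.091, adjusted p = 6.7e-78). IER3, an early response gene, rose from a mean of 61.2 to 249.9 CPM (2.03, adjusted p = 4.91e-27) and CCND1, cyclin D1, from 201.5 to 644.0 CPM (1.68, adjusted p = 3.6e-121). LTO1 shares 497 exon bases with CCND1 on the other strand and had 6.4% of its counts. CXCL8, the chemokine interleukin-8, rose from 27.2 to 39.4 CPM (0.54, adjusted p = 1.99e-12) while CXCL1 fell, and XIAP, an inhibitor of caspases, from 76.2 to 85.9 CPM (0.18, adjusted p = 0.000873). Target lists were written with earlier results of these data known, so the counts are a description.

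**Figure D5:**
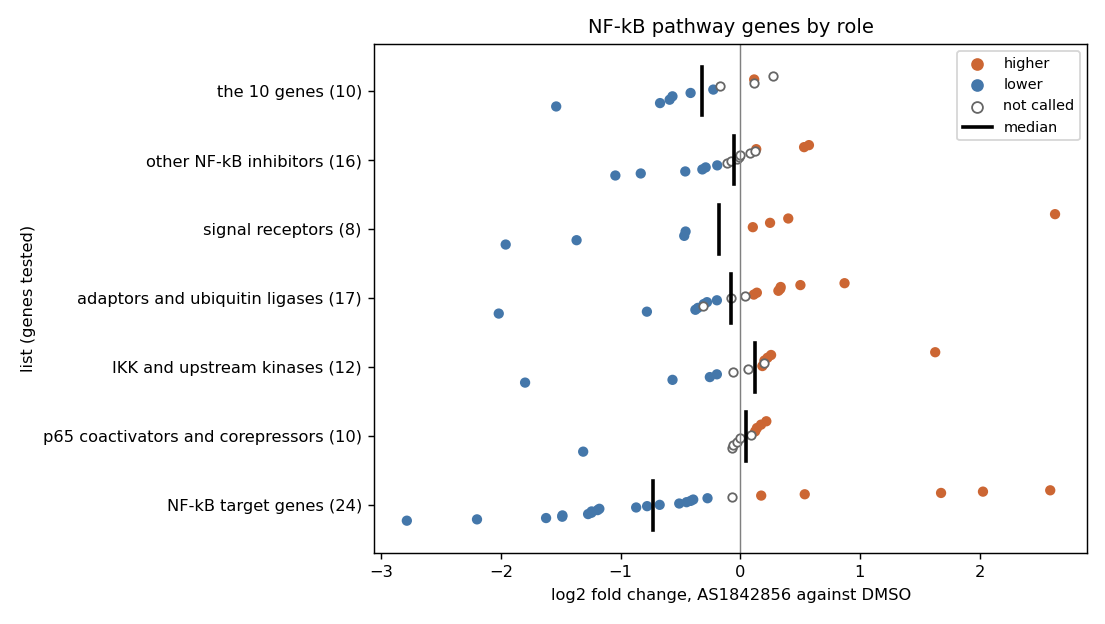
Log2 fold change, AS1842856 against DMSO, of each tested gene of the 10 genes and of 6 lists of the pathway, with the number tested in brackets; orange points were called higher, blue points lower and open points not called, black bars are medians, and the small vertical offsets within a row only keep points apart. The median is -0.32 for the 10 genes and -0.73 for the target genes, and lies between -0.18 and 0.12 for the other lists.

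For the 3 genes with the largest change, the protein-coding genes with the most similar profile over the 6 libraries were found among 11576 genes, by the root mean square distance between log2 CPM values centred on each gene's mean. For genes with a large change this distance rests largely on the difference between the groups, so similar fold changes follow from the choice. The nearest to BIRC3 were TRIM47 (distance 0.071) and CACNG7 (0.089), with log2 fold changes of -1.44 and -1.45. CACNG7 was low, at means of 1.64 CPM in DMSO and 0.593 CPM in AS1842856. For TNFAIP3 they were ARMCX1 (0.035) and MMP17 (0.037), at -0.65 and -0.70. NFKBIA lay nearest to IGF2BP2 (0.023) and REX1BD (0.024), at -0.59 and -0.62. None of these 6 genes is in the lists of the pathway.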

How the data were processed

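RNA from 3 DMSO and 3 AS1842856 cultures of BT549 cells was sequenced. Per the study's methods, reads were called with CASAVA and mapped with STAR, while the submitters' processing notes name CASAVA, Bowtie 0.12.2 and GRCh38; the counting tool, annotation release and use of strand are not given in the sources used here. The authors deposited raw counts per Ensembl gene for all 6 libraries and FPKM per library; the deposited FPKM matched the count divided by the summed exon length of GENCODE 29 within 2% for 100.0% of 72448 values. No comparison columns of the authors were used.

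Counts were tested with the edgeR 4.0.16 quasi-likelihood test (R 4.3.3; minimum count 10, minimum total 15, TMM factors 0.9949 to 1.006, robust), adjusted by Benjamini-Hochberg over 14338 genes (99.87% of counts; common biological coefficient of variation 0.03744). On counts simulated for this comparison, with 200 changed genes, it recovered 86.29% of those among the 14308 genes tested there. The FPKM of members, each a per-library value, gave shares, order and ratios. Alternatives were DESeq2 1.42.0, its size factors, library totals, other filters, limma 3.58.1 on log2(FPKM + 1) and log2(FPKM + 0.1), a replicate block and leaving out each library. Same-letter libraries did not deviate together (correlations 0.042, -0.012 and -0.0033), and no pair of replicates agreed within sampling noise. The study describes the replicates as biological; where cultures shared a source, p-values measure only the spread between these libraries. The members and lists were chosen with earlier results of these data known. Named were all members, for each list up to 3 called genes with the largest rise and 3 with the largest fall (5 and 5 for targets; mean of at least 1 CPM, no overlap between groups), and 2 nearest profiles for each of 3 members. The receptors TLR3 and TNFRSF12A are named outside this rule, as limits of the count of receptors called. SOD2 is named outside it too, as a listed target that the study names as induced by FOXO1. Overlapping genes are named for members and where they held over 5% as many counts as a named gene, with a few others below that.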

Additional observations from a re-analysis of the deposited data

How the results depend on the processing

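Of the 7 members called, 6 (NFKB1, NFKB2, NFKBIA, TNFAIP3, BIRC3, BCL3) kept their call and direction under every alternative run, and no value of the report reversed. RELA was not called without a filter on low counts (log2 fold change 0.10), on log2(FPKM + 1) without a filter (0.11) or without AS1842856 replicate C, and its change lay between 0.0823 and 0.1406 with each library left out; RELB lay between 0.0696 and 0.1629 and was called without AS1842856 replicate B. The cause was not tested. The number of members called was 6, 7 or 8 in all alternatives, and with a replicate block it was 7, with 7862 of all genes called; the block changed no call on a member, and the same-letter libraries share only the letter. DESeq2 called 6791 genes, the FPKM fits 6523 to 6664, the other count fits 7293 to 8030 and the fits with 1 library left out 7427 to 7678, against 8029. Among receptors, 4 rather than 8 were called by limma on log2(FPKM + 1) and log2(FPKM + 0.1) with a mean of at least 0.5 FPKM, which leaves fewer of them to test. Of the p65 coactivators and corepressors, 3 rather than 5 were called on log2(FPKM + 1) without a filter. Per principal transcript length, chosen after seeing the data, the subunit shares in DMSO and AS1842856 were 13.9% and 12.6% for NFKB1, 25.8% and 18.5% for NFKB2, 42.8% and 49.0% for RELA, 17.1% and 19.5% for RELB and 0.347% and 0.443% for REL, and the rank was kept by 6 of 10 genes in DMSO and 8 of 10 in AS1842856. Of the 38 list genes named by the rule on the size of change, 33 kept their call and direction under every alternative that gave a value, and ZC3H12A, TRAFD1, TNIP3, TAB3 and CREBBP lost the call under at least 1, log2(FPKM + 1) without a filter in each case. REL, with 74 to 107 counts in a library, moved between 0.14 and 0.40 with each library left out, and 6 receptors and 12 targets were too low to test.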

Other observations

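The forkhead core GTAAACA was met upstream of 305 tested genes with a promoter entry, of which 38.0% were lower and 24.6% higher in AS1842856 (median log2 fold change -0.05), beside 30.3% lower and 29.6% higher of the 9849 tested genes without it (median -0.003). None of the 8 NF-kB genes with an entry was among them. These shares are given without a test.

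The share of genes with a kappaB consensus match differed in number between the lists of the pathway: 13 of 27 target genes with a promoter entry, 7 of 15 other inhibitors, 2 of 15 adaptors and ubiquitin ligases, 2 of 11 kinases, 1 of 11 receptors and 2 of 7 p65 coactivators and corepressors. Over all 27305 genes in the promoter table the share was 11.8%. The lists were written with earlier results of these data known. Whether the matches bear on the change of a list was not tested.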
